A study of Mus musculus with 8 samples.

Results

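Unexpanded T cells of the injured mouse brain were defined as cell barcodes whose clonotype, a set of T cell receptor (TCR) chains with the same CDR3 nucleotides, was seen in 1 cell of its library. Barcodes with an alpha chain that joins TRAV11 to TRAJ18, the invariant chain of iNKT cells, were set aside. By this rule 1358 of the 2986 cells with a TCR (45.5%) were unexpanded T cells, and 109 further cells were seen once but carried the TRAV11-TRAJ18 chain. The frequency of 1 cell is a property of the sample drawn and not of the clone in the mouse. Since the cells were chosen by their clonotype's frequency, the number of unexpanded cells is a description. Just past the threshold lay the clonotypes of 2 cells, which numbered 10 in the young isotype, 21 in the young aCD49d, 47 in the aged isotype and 42 in the aged aCD49d library.

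The cells came from 4 single-cell TCR libraries (10x Genomics 5' chemistry), 1 for each combination of age and treatment. Each library was made from CD45+ brain cells sorted from a pool of 2 male B6 mice, taken 2 months after traumatic brain injury (TBI) by controlled cortical impact. Young mice were injured at 13 to 15 weeks of age and aged mice at 80 to 82 weeks, and both ages received either aCD49d antibody (Ab), which binds an integrin subunit that lymphocytes use to enter the brain, or its isotype control every 2 weeks. Every library is from an injured brain, so no uninjured repertoire was compared here, and young and aged mice came from different colonies, so age and colony cannot be told apart. The young isotype library held 192 unexpanded T cells of 262 (73.3%), the young aCD49d library 390 of 577 (67.6%), the aged isotype library 354 of 1024 (34.6%) and the aged aCD49d library 422 of 1123 (37.6%). Those shares follow from the rule and are given as a description. With 1 library per group, no difference between groups could be tested. Exact (Clopper-Pearson) 95% intervals are given for shares and Newcombe 95% intervals for differences between shares. Both cover counting error only, not the variation between mice, and wherever a difference is said below to leave out 0, that refers to this interval.

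A TCR is a pair of an alpha and a beta chain. Each chain gene is assembled in the thymus by joining a V to a J segment, with a D segment between them in the beta chain, and nucleotides are trimmed and added at the joins. The joined stretch encodes CDR3, the loop that lies over the presented peptide, while CDR1 and CDR2 are encoded in V and mostly touch the MHC molecule. A T cell that has divided little keeps a receptor shared with few other cells, so the unexpanded cells of a tissue show the repertoire from which expanded clones stand out. The identity of the cells as T cells rests on their TCR chains alone. Transcriptomes were not analysed here, so CD4+, CD8+, naive and memory cells were not separated among them.

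Most of the unexpanded T cells gave a whole receptor. An alpha and a beta chain were both recovered in 1016 cells (74.8%), a beta chain alone in 303 and an alpha chain alone in 39. Both chains were found in 76.6% of the young isotype cells (147), 75.1% of the young aCD49d cells (293), 66.1% of the aged isotype cells (234) and 81.0% of the aged aCD49d cells (342). Recovery was lowest in the aged isotype library, and so was the number of captured transcripts per cell. The median number of TCR UMIs (unique molecular identifiers, 1 per captured transcript) per cell was 15, 13, 10 and 17 in the same order. Alpha chains rested on 1 UMI in 20.2% of the aged isotype cells' chains against 10.8% in the young isotype, 11.6% in the young aCD49d and 8.64% in the aged aCD49d library. For beta chains that share was 2.11%, 1.04%, 1.70% and 0.468%. Alpha usage in the aged isotype library therefore rests on a single captured transcript more often than in the other libraries.

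The beta chain was taken from 1319 cells and the alpha chain from 1055, using the chain with most UMIs where a cell held a pair for 1 locus. A second alpha chain was present in 81 cells, 7.68% of those with any alpha chain (interval 6.14 to 9.45). Allelic exclusion is known to be incomplete at the alpha locus. Doublets were neither called nor removed here, and their part in the cells with a second chain was not tested. The median UMI number was 5 for the first and 3 for the second of these chains. A second beta chain was seen in 8 of the young isotype, 3 of the young aCD49d, 9 of the aged isotype and 15 of the aged aCD49d cells. Among the cells with both chains, 1013 different pairs of CDR3 nucleotide sequences were found in 1016 cells. The rule itself keeps this number high, since it takes clonotypes of 1 cell. In all, 47 cells (3.46%, interval 2.55 to 4.58) shared a chain's CDR3 nucleotides with another cell of their library while being counted as separate clonotypes, 10 of them with a clonotype of 2 or more cells. Of these, 3 were in the young isotype, 12 in the young aCD49d, 14 in the aged isotype and 18 in the aged aCD49d library. Where the V call was also required to match, 30 cells (2.21%) remained. A single cell barcode occurred in 2 libraries, both aged, and its chains differed between them.

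Some V names need care before usage is read. The most frequent TRBV label was a joint call of TRBV12-2 with TRBV13-2, given to 131 unexpanded cells. All 131 carried the CDR1 NNHNN and the CDR2 SYGAGS of the 36 cells called TRBV13-2 alone, whereas the 48 cells called TRBV12-2 alone carried SGHLS and HYDKME. The joint call therefore had the CDR1 and CDR2 of TRBV13-2 (chr6:41121396-41121832, GRCm38, plus strand). The label TRBV10, given to 54 cells, had a framework 3 sequence that was found in the GRCm38 genome only at Trbv4 (chr6:41059443-41059886) and not at Trbv10 (chr6:41091935-41092228). On the alpha side, duplication of the mouse V array leaves near-identical copies, and the framework 3 of 36 TRAV calls, held by 507 of the 1055 alpha chains (48.1%), occurred at several places in the genome. Names are printed below as deposited, and the values of a TRAV name are those of that call alone, without its copies.

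Beta chains drew on 22 TRBV labels, of which 20, 21, 21 and 22 were seen in the young isotype, young aCD49d, aged isotype and aged aCD49d libraries and 19 in all 4. The joint call made up 14.8% of beta chains in the young isotype library (27 of 182), 9.97% in the young aCD49d (38 of 381), 9.59% in the aged isotype (33 of 344) and 8.01% in the aged aCD49d library (33 of 412). Joined with the cells called TRBV13-2 alone, which numbered 0, 11, 11 and 14, the segment made up 14.8%, 12.9%, 12.8% and 11.4%. It was the most used beta V segment in every library under this joint count. TRBV3 was next by the mean of the 4 libraries, though not in each of them, at 7.69%, 7.87%, 7.56% and 8.98%. TRBV19 (chr6:41178589-41179048) stood at 11.5%, 5.51%, 5.52% and 8.01%. TRBV13-1 was used in 8.79%, 7.61%, 7.27% and 5.34%, and TRBV16 in 7.69%, 6.56%, 5.52% and 7.28%. TRBV13-3 was used in 4.40% and 5.51% of the young libraries' chains and in 9.30% and 8.74% of the aged libraries' chains. The interval of its difference with age included 0 under either treatment. The TRBV13 family as a whole took 28.0%, 26.0%, 29.4% and 25.5% of beta chains, so about equal shares in all 4 libraries. The rarest labels were TRBV30, seen in 3 cells, and TRBV23, seen in 7.

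**Figure D1:**
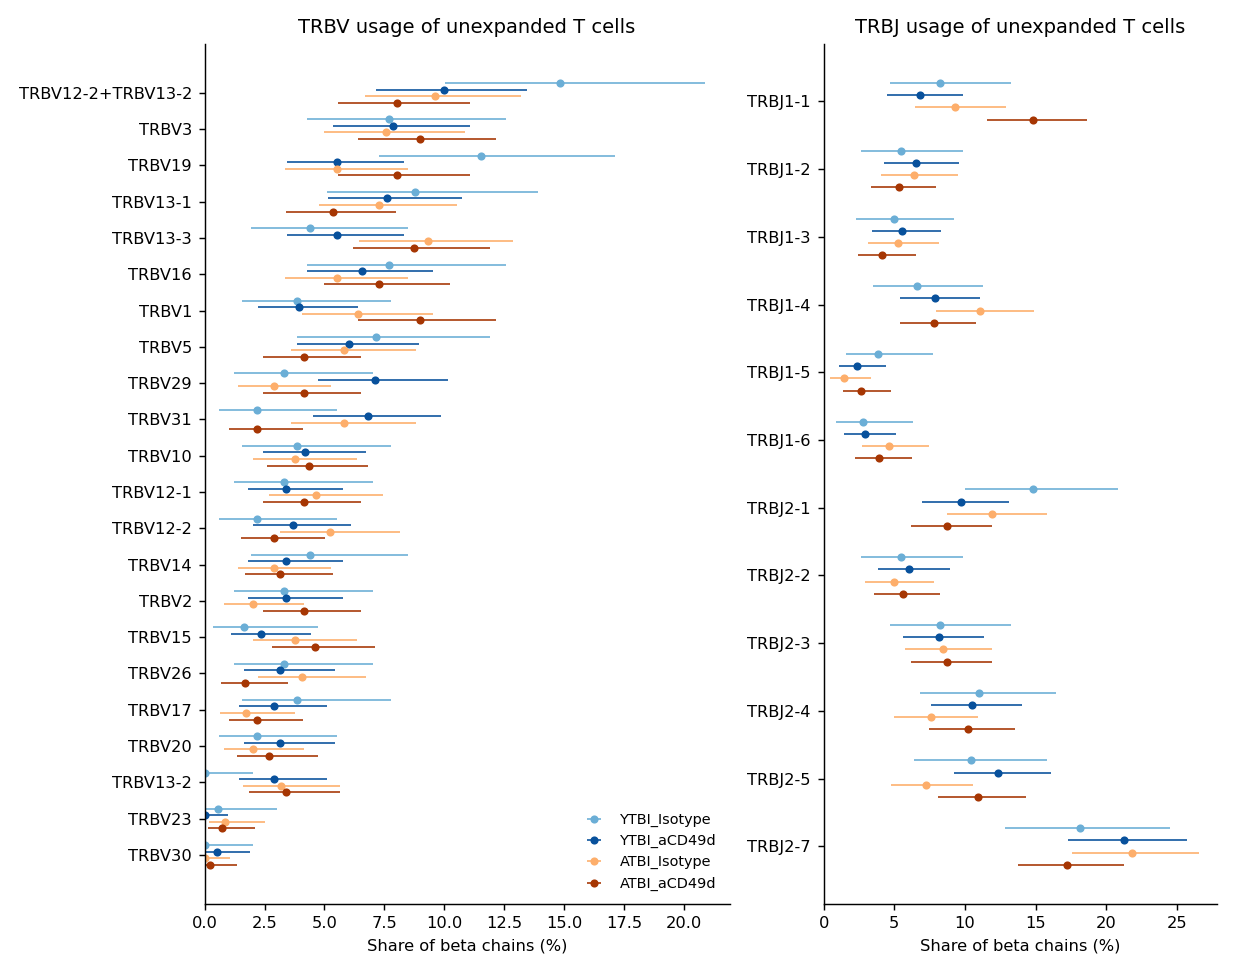
Share of beta chains of unexpanded T cells (x axis, percent) that use each TRBV label (left) and TRBJ segment (right) in the 4 libraries, with points for shares and lines for exact 95% intervals. TRBV19 is highest in the young isotype library at 11.5%, TRBV31 is at 2.20% and 2.18% in the young isotype and aged aCD49d libraries against 6.82% and 5.81% in the others, and TRBJ1-1 is highest in the aged aCD49d library at 14.8%.

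J segment usage of the beta chain was uneven. All 12 TRBJ segments with calls were seen in each library. TRBJ2-7 (chr6:41543810-41543856) was the most used in each library, with 18.1%, 21.3%, 21.8% and 17.2% of chains. TRBJ2-1 was used in 14.8%, 9.71%, 11.9% and 8.74%, and TRBJ2-5 in 10.4%, 12.3%, 7.27% and 10.9%. TRBJ1-1 (chr6:41533864-41533911) was used in 8.24%, 6.82%, 9.30% and 14.8%. The J2 cluster, which lies downstream of its own D segment, took 68.1% (60.8 to 74.8), 68.0% (63.0 to 72.6), 61.9% (56.6 to 67.1) and 61.4% (56.5 to 66.1). These intervals overlapped.

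The D segment and the constant region followed the order of the locus, in which TRBD1 lies before both J clusters and TRBD2 lies between them. A D segment was called in 24.3% of beta chains (22.0 to 26.7). Of the chains with a TRBJ1 segment and a D call, 95 had TRBD1 and 1 had TRBD2, whereas those with a TRBJ2 segment had TRBD1 in 113 cells and TRBD2 in 111. The 1 chain with TRBD2 and TRBJ1 would need a join against the order of the segments. TRBJ1 chains ran into TRBC1 in 468 cells and into TRBC2 in none, and TRBJ2 chains into TRBC2 in 845 cells and into TRBC1 in none. The other 6 beta chains had no constant region call.

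Alpha chains were spread over more segments. In all, 86 TRAV calls of 19 families and 43 TRAJ segments were seen, 44 and 36 of them in all 4 libraries. No TRAV call passed 5.10% of the alpha chains of a library. TRAV12D-3 was used in 5.10%, 1.32%, 4.92% and 2.56% of chains in the order young isotype, young aCD49d, aged isotype and aged aCD49d. TRAV10 was used in 3.18%, 2.98%, 4.10% and 3.41%, and TRAV3D-3 in 1.91%, 4.97%, 3.28% and 3.12%. TRAV12D-2 was used in 1.91%, 2.98%, 4.10% and 3.69%, TRAV7D-2 in 5.10%, 2.98%, 1.64% and 2.56%, and TRAV4D-4 in 3.82%, 3.97%, 2.46% and 1.99%. Each of these rested on 15 cells or fewer in a library. By family, which is less touched by the near-identical copies, TRAV7 took 17.2%, 14.2%, 12.3% and 11.6%, TRAV12 14%, 8.61%, 14.3% and 11.4%, TRAV6 11.5%, 15.6%, 9.84% and 11.1%, and TRAV14 7.01%, 9.93%, 9.84% and 10.8%. TRAJ22 (chr14:54197248-54197307) was used in 7.64%, 4.97%, 8.20% and 7.67%, TRAJ31 in 5.10%, 6.29%, 6.15% and 3.69%, TRAJ23 in 5.73%, 4.64%, 3.69% and 3.98%, and TRAJ26 in 2.55%, 4.30%, 4.92% and 5.11%.

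Alpha V segments near the J array were joined mostly to the J segments nearest to V. At this locus a first join can be replaced by later ones that use V segments farther upstream and J segments farther downstream. The TRAV calls were ordered by genome position and divided into 29 that lie farthest from the J segments, 29 in the middle and 28 nearest to them. TRAJ31 to TRAJ61, the J segments nearest to the V array, were used in 73.2% of the chains with a near V (289 of 395), 31.7% of those with a middle V and 28.4% of those with a far V (86 of 303). The median TRAJ number was 38 with a near V and 23 with a middle or far V. The difference of near minus far was 44.8 points over all libraries (37.6 to 51.4). Per library it was 44.4 points (24.3 to 60.9) in the young isotype, 40.8 (26.3 to 53.5) in the young aCD49d, 47.7 (32.7 to 60.3) in the aged isotype and 46.2 (33.0 to 57.4) in the aged aCD49d library. Near V segments stood above far ones in each of the 4 libraries. The middle V segments used TRAJ31 to TRAJ61 in 20.4%, 39.6%, 26.4% and 32.0% of chains, below the far ones in the young isotype library (32.6%) and above them in the other libraries. Over alpha chains whose V framework 3 occurs at 1 place in the genome, the difference was 40.5 points (26.6 to 53.2) in all, but per library the intervals of the young isotype (-1.86 to 73.4) and the aged isotype (-1.07 to 53.6) included 0. TRAJ31 to TRAJ61 made up 47.1%, 49.3%, 43.9% and 44.9% of all alpha chains in the 4 libraries.

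**Figure D2:**
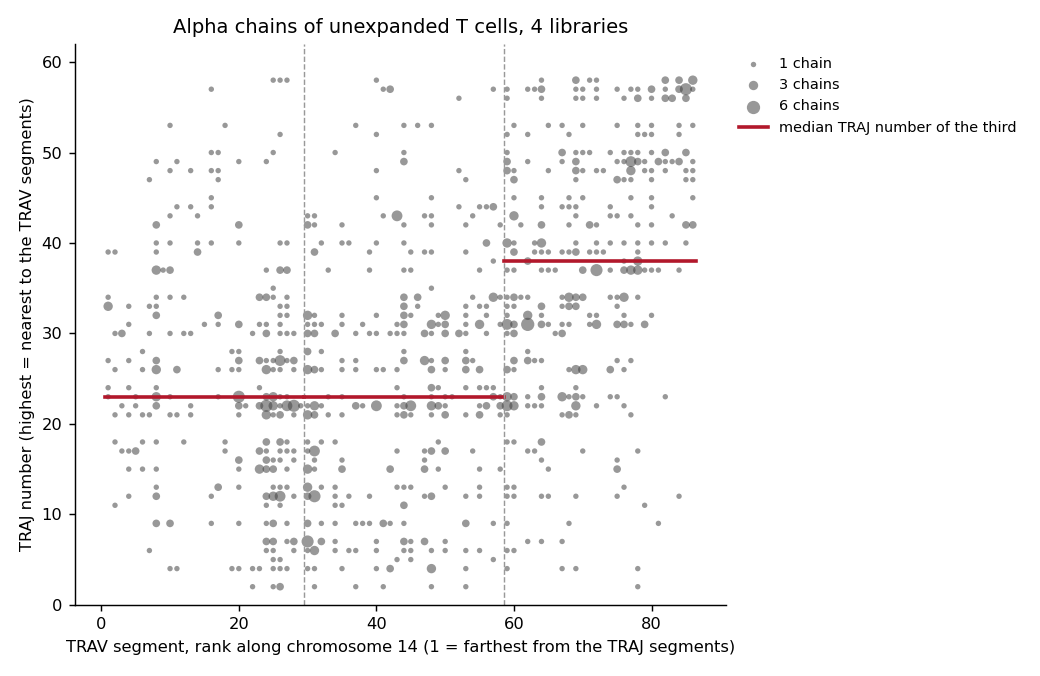
TRAV rank along the locus (x axis, 1 farthest from the J segments) against TRAJ number (y axis) for alpha chains of unexpanded T cells of the 4 libraries, with dots sized by the number of chains, dashed lines between far, middle and near V segments and red lines at the median TRAJ number of each. The median is 23 for far and middle and 38 for near V segments, and the upper left of the plot is sparsely filled.

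Segment pairs were counted against those that the observed segments allow, whose number for alpha exceeds that of the alpha chains. TRBV-TRBJ pairs seen numbered 235 of 264 (89.0%), TRAV-TRAJ pairs 761 of 3698 (20.6%), of which 554 were seen once, and TRBV-TRAV pairs 651 of 1892 (34.4%), of which 419 were seen once. The most frequent beta pair, the joint call with TRBJ2-7, occurred in 28 cells where the product of the single shares gives 25.8. TRBV19 with TRBJ2-7 occurred in 22 cells (18.5 from single shares), TRBV16 with TRBJ2-7 in 21 (17.3), TRBV3 with TRBJ2-7 in 18 (21.1), and the joint call with TRBJ2-1 in 16 (14). Also in 16 cells each were TRBV13-3 with TRBJ2-5 (10) and TRBV13-3 with TRBJ2-7 (19.1), named after their values were seen. The leading pairs lay on both sides of the number that their single shares give. Among alpha pairs, TRAV7-5 with TRAJ31 led with 6 cells (1.15 from single shares), 4 of them in the young isotype library. TRAV12D-2 with TRAJ22 (2.45 from single shares), TRAV14-2 with TRAJ37 (0.661), TRAV14D-1 with TRAJ23 (1.05) and TRAV14D-2 with TRAJ22 (1.12) occurred in 5 cells each. These pairs were taken for their number of cells, so the excess over the single shares is a description.

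Between the chains of 1 cell, the pair seen most often was TRBV19 with TRAV12D-3, in 8 cells (2.49 from single shares): 3 in the young isotype, 0 in the young aCD49d, 3 in the aged isotype and 2 in the aged aCD49d library. TRBV19 with TRAV12-3 followed with 6 cells (1.17 from single shares) and TRBV31 with TRAV6-6 with 6 (1.30). TRAV12D-3 and TRAV12-3 share their framework 3 sequence. At the level of families, TRBV19 was paired with TRAV12 in 18 cells against 9.33 from the single shares, in 6, 2, 5 and 5 cells of the libraries. The largest family pair, TRBV13 with TRAV7, occurred in 38 cells against 34.6 from the single shares. The CDR3 lengths of the 2 chains had a Pearson r of 0.0185 over 1016 cells, given as a description. It was 0.160 in the young isotype, -0.00148 in the young aCD49d, 0.0512 in the aged isotype and -0.0431 in the aged aCD49d library. The summed length of the 2 chains was 27.5 ± 1.97 residues (SD over cells).

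CDR3 lengths were alike in all libraries. Counted from the conserved cysteine to the closing phenylalanine or tryptophan, beta CDR3s had 13.95 ± 1.36 residues (SD over 182 chains) in the young isotype, 13.96 ± 1.42 (381) in the young aCD49d, 13.94 ± 1.41 (344) in the aged isotype and 13.93 ± 1.35 (412) in the aged aCD49d library, with a range of 9 to 19. Alpha CDR3s had 13.66 ± 1.31, 13.58 ± 1.46, 13.54 ± 1.37 and 13.59 ± 1.37 residues, with a range of 6 to 18. The most frequent length was 14 for both chains in every library. Beta CDR3s of 15 residues or more made up 35.7%, 37.3%, 33.4% and 35.0%, and those of 12 or fewer 14.3%, 15%, 15.7% and 15.5%. Among segments and families with at least 20 chains, mean length varied more than between libraries. Mean beta length ran from 13.2 with TRBJ1-1 to 14.7 with TRBJ2-2, and mean alpha length from 11.8 with TRAJ33 to 14.9 with TRAJ42. Among V segments it ran from 13.4 with TRBV26 to 14.7 with TRBV2, and from 12.9 with the TRAV8 family to 14.9 with TRAV16.

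The junction was measured as the CDR3 bases left between the longest germline V match and the longest germline J match. In beta chains, where these bases include what is left of D, the median was 10 in every library, with means of 10.3, 10.1, 10.0 and 10.0. A beta chain with no unmatched base was seen in 8 of 1319. In alpha chains, which have no D, the median was 3, 2, 2 and 2 and the means were 2.75, 2.83, 2.89 and 2.76. Alpha chains with no unmatched base at all, read straight from V into J, made up 15.9%, 14.6%, 15.6% and 17.0%, or 167 of 1055 (15.8%). Trimmed, added and D bases were not separated in these numbers, so the loci cannot be compared by them.

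**Figure D3:**
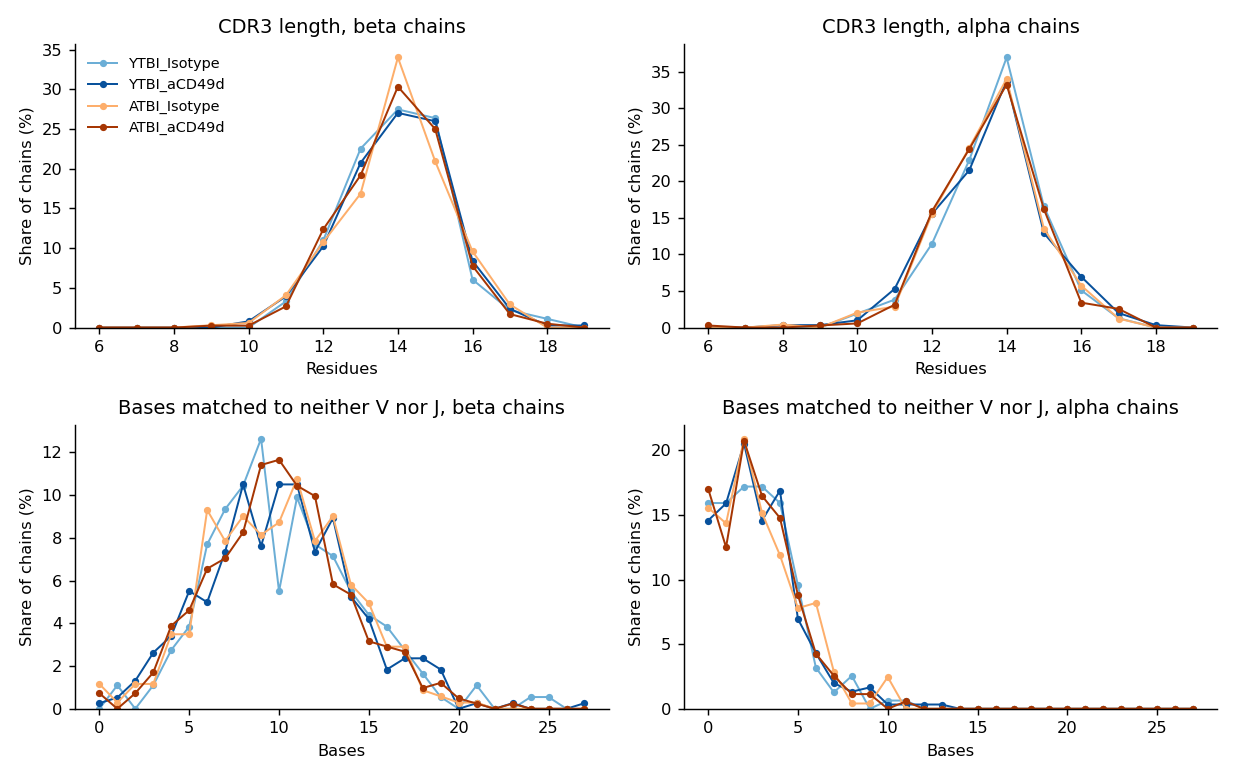
CDR3 length in residues and number of unmatched junction bases of beta and alpha chains of unexpanded T cells, as percent of the chains of each of the 4 libraries. The curves of the libraries nearly overlap, with the most frequent length at 14 residues for both chains, a median of 10 unmatched bases in beta and of 2 to 3 in alpha chains.

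The loops of the 2 chains had different residues. Composition was counted over CDR3 without its first 3 and last 3 residues. Glycine and serine led in both chains, with 18.8% and 15% of the central residues of beta and 17.8% and 15.9% of those of alpha. Beta loops were richer in aspartate and glutamate (16.1%) than in lysine and arginine (7.28%), and alpha loops the reverse (5.60% and 13.6%). Lysine made up 8.47% of alpha residues and 0.610% of beta residues, and asparagine 14.7% of alpha residues. Net charge, counted as lysine plus arginine minus aspartate and glutamate, was below 0 in 61.0%, 60.4%, 59.3% and 59.5% of beta chains and above 0 in 64.3%, 57.9%, 54.5% and 55.7% of alpha chains. Acidic beta and basic alpha loops were thus the more common state in every library at this trimming. With 4 residues left out at each end in place of 3, beta loops below 0 made up 37.9%, 45.4%, 45.9% and 45.9% and alpha loops above 0 made up 9.55%, 9.93%, 8.61% and 10.2%.

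Part of this charge is written in the germline J segments, whose residues are within the counted loop. The CDR3 part of the 12 TRBJ segments is given from the GRCm38 plus strand of chromosome 6, 5' to 3' up to the closing codon. Codons for aspartate, glutamate, lysine and arginine are in capitals. In 6 of them the net charge is -1:
TRBJ1-1: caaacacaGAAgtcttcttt
TRBJ1-2: caaactccGACtacaccttc
TRBJ2-1: taactatgctGAGcagttcttc
TRBJ2-3: agtgcaGAAacgctgtatttt
TRBJ2-5: aaccaaGACacccagtacttt
TRBJ2-7: ctcctatGAAcagtacttc
In the other 6 it is 0, with an acidic and a basic codon side by side in TRBJ1-4:
TRBJ1-3: ttctggaaatacgctctatttt
TRBJ1-4: tttccaacGAAAGAttatttttc
TRBJ1-5: taacaaccaggctccgcttttt
TRBJ1-6: ttcctataattcgcccctctacttt
TRBJ2-2: caaacaccgggcagctctacttt
TRBJ2-4: agtcaaaacaccttgtacttt

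Chains with a J of net charge -1 had a loop below 0 in 76.0% of 861 chains (73.0 to 78.8), and those with a J of charge 0 in 29.7% of 458 chains (25.5 to 34.1). Each of the 6 segments of the first kind lay between 72.1% and 81.2%, and each of the second between 25% and 37.5%, so the 2 kinds did not overlap. The charged J codon is itself counted in the loop, so a gap between the kinds is built into the measure. Loop charge without the J residues was not compared. In the young isotype, young aCD49d, aged isotype and aged aCD49d libraries the shares were 79.8%, 74.5%, 77.7% and 74.2% with the first kind and 25.4%, 34.3%, 25% and 31.2% with the second. The first kind was used in 65.4%, 64.8%, 65.1% and 65.8% of beta chains. The mix of acidic and neutral J segments was therefore about the same in all libraries, although single segments such as TRBJ1-1 were not.

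Alpha J segments mostly carry a basic codon near their end. The examples below, chosen for their charge and read from the plus strand of chromosome 14 in the same build, show a lysine or arginine codon, none, or an aspartate codon:
TRAJ37: taacaggcaataccggaAAActcatcttt
TRAJ6: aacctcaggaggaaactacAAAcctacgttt
TRAJ31: ggaatagcaataacAGAatcttcttt
TRAJ22: catcttctggcagctggcaactcatcttt
TRAJ33: tgGATagcaactatcagttgatctgg
Of the TRAJ segments seen, 27 have a net charge of 1, and 78.4% of their 670 chains (75 to 81.4) had a loop above 0. Another 14 have a charge of 0, with 22.5% of 351 chains above 0 (18.2 to 27.2). TRAJ33 and TRAJ45, with a charge of -1, had 2.94% of 34 chains above 0. Segments of charge 1 with 20 or more chains, 17 in number, ranged from 60% to 95%, and the 9 of charge 0 from 10% to 48%. Here too the charged J codons are counted in the loop, so a gap is built into the measure. TRAJ of charge 1 made up 70.7%, 65.6%, 60.2% and 60.8% of alpha chains, in the same order as above.

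**Figure D4:**
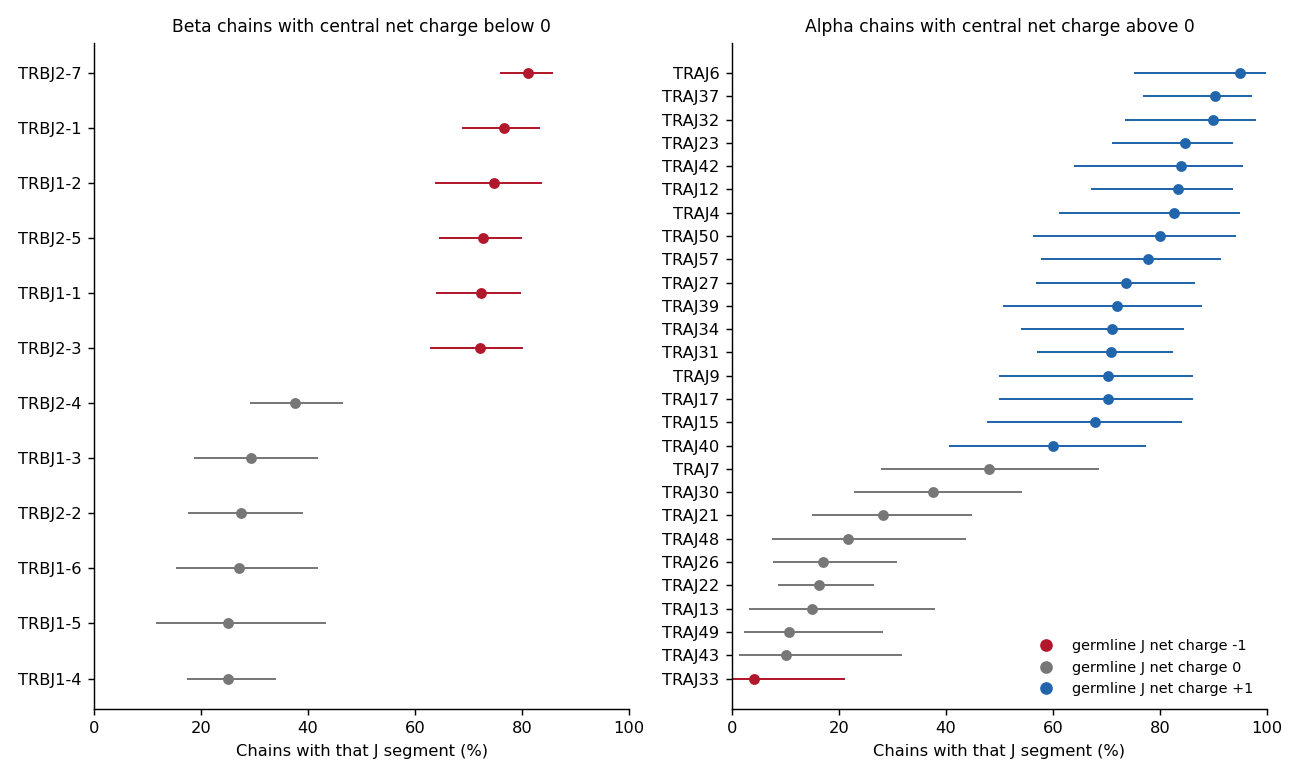
Share of chains with CDR3 net charge below 0 by TRBJ segment and above 0 by TRAJ segment (percent, with exact 95% intervals) in unexpanded T cells, coloured by the net charge that the germline J encodes. TRBJ segments of charge -1 lie between 72.1% and 81.2% and those of charge 0 between 25% and 37.5%.

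Position by position, the same feature could be seen. Among the 395 beta CDR3s of 14 residues, counted from the cysteine as position 1, glycine stood at position 7 in 39.7% and at position 8 in 38.7%, and position 11 held glutamate in 38.2% or threonine in 35.9%. Among the 360 alpha CDR3s of 14 residues, position 11 held lysine in 66.4% and position 12 leucine in 73.6%. Glycine in the middle of the beta loop is the residue that most readings of the D segments encode. Of the TRAJ examples printed above, only TRAJ37 encodes a lysine followed by a leucine. The germline origin of the residues at these positions was not tested. Within cells, the charge of one chain told little of the other. A beta loop below 0 was paired with an alpha loop above 0 in 353 of 1016 cells (34.7%), where the product of the single shares gives 33.3%. The alpha loop was above 0 in 59.2% of the 596 cells with a beta loop below 0 and in 60.5% of the 114 cells with a beta loop above 0, and the Pearson r of the charges was -0.0144, given as a description.

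Hydrophobic residues at positions 6 and 7 and cysteine within the loop have been tied to self-reactive receptors in mice. A hydrophobic residue at either position was found in 21.4%, 24.9%, 28.2% and 23.3% of beta and 26.8%, 26.8%, 24.2% and 25.9% of alpha chains. Hydrophobic residues at both positions 6 and 7 of the beta CDR3 were found in 0.549%, 1.84%, 0.291% and 0.728% of chains, and of the alpha CDR3 in 0.637%, 1.32%, 1.23% and 1.42%. In clonotypes of 2 or more cells, the beta share with both was 5.56% (1 of 18), 7.69% (3 of 39), 1.16% (1 of 86) and 1.23% (1 of 81), and the interval of its difference from the unexpanded cells included 0 in each library. A cysteine within the central loop was seen in at most 2 chains of a kind in a library.

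The question of age was addressed by comparing aged with young libraries within a treatment, over segments with at least 10 unexpanded cells in either library. Between the isotype libraries, 2 of 17 TRBV labels (11.8%) had a difference whose interval left out 0. TRBV19 was lower in the aged library, at 5.52% against 11.5% (difference -6.02 points, -12.0 to -0.830). Its interval left out 0 in 5 of 8 alternatives, and with exactly 1 alpha and 1 beta chain the difference was -4.76 points (-12.4 to 1.99). Among the 8 alternatives, counting the joint call as TRBV13-2 cannot move any other TRBV, TRBJ or TRAJ. Leaving joint calls out cannot move a TRAJ. Such repeats stay the same by construction, here and in the comparisons below. The label TRBV13-2 was higher, by 3.20 points (0.637 to 5.65), but its interval left out 0 in 3 of 8 alternatives, and with the joint call counted as TRBV13-2 the difference was -2.04 points. The joint call itself differed by -5.24 points (-11.9 to 0.787). None of 11 TRBJ (0%), 7 TRAJ (0%) and 3 TRAV (0%) segments had such a difference. The largest among TRAV were those of TRAV12D-2, 2.19 points (-1.96 to 5.83), and TRAV10, 0.914 points (-3.69 to 4.86).

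Between the aCD49d libraries, intervals without 0 were found for TRBV1, TRBV31, TRBJ1-1, TRAJ39 and TRAJ17. Of 20 TRBV labels, 2 (10%) had an interval without 0. TRBV1 (chr6:40891296-40891885) was at 8.98% in the aged library (37 cells) against 3.94% in the young (15 cells), a difference of 5.04 points (1.47 to 8.66), with an interval that left out 0 in 6 of 8 alternatives. TRBV31 was lower, at 2.18% (9 cells) against 6.82% (26 cells), a difference of -4.64 points (-7.88 to -1.63), which left out 0 in 8 of 8. Of 12 TRBJ segments 1 (8.33%) differed: TRBJ1-1 stood at 14.8% (61 cells) against 6.82% (26 cells), 7.98 points (3.52 to 12.4). Its interval left out 0 in 7 of 8 alternatives, over which the difference ran from 4.56 to 8.57 points. Of 19 TRAJ segments 2 (10.5%) differed, TRAJ39 by -2.84 points (-5.82 to -0.253) and TRAJ17 by -2.74 points (-5.48 to -0.487), on 12 cells or fewer in each library, in 6 of 8 and 7 of 8 alternatives. Among 10 TRAV calls (0% with an interval without 0), the largest differences were those of TRAV4D-4 (-1.98 points, -5.08 to 0.824) and TRAV3D-3 (-1.84 points, -5.30 to 1.39).

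The question of treatment was addressed within each age. In young mice, 3 of 19 TRBV labels (15.8%) had an interval without 0 between aCD49d and isotype. TRBV19 was lower with aCD49d Ab (-6.03 points, -12.0 to -0.941, an interval without 0 in 6 of 8 alternatives) and TRBV31 higher (4.63 points, 0.566 to 8.04, in 7 of 8). The label TRBV13-2 was higher (2.89 points, 0.419 to 5.11, in 3 of 8), but -1.97 points once the joint call was included. The joint call differed by -4.86 points (-11.5 to 1.08). Of 16 TRAJ segments 1 (6.25%) differed, TRAJ57, which stood at 6.37% (10 cells) with isotype and 0.993% (3 cells) with aCD49d Ab. Its difference was -5.38 points and its interval left out 0 in 7 of 8 alternatives, over which it ran from -5.78 to -2.30 points. None of 11 TRBJ (0%) or 3 TRAV (0%) segments did, the largest TRAV differences being 3.06 points for TRAV3D-3 (-1.12 to 6.50) and 1.43 points for TRAV6-6 (-2.87 to 4.84).

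In aged mice, 1 of 19 TRBV labels (5.26%) had an interval without 0 between aCD49d and isotype. This was TRBV31, at 2.18% against 5.81% (-3.63 points, -6.87 to -0.688, an interval without 0 in 6 of 8 alternatives), and the next named label, TRBV1, differed by 2.59 points (-1.47 to 6.54). TRBJ1-1 was the 1 of 12 TRBJ segments (8.33%), at 14.8% against 9.30% (5.50 points, 0.646 to 10.3). Its interval left out 0 in 4 of 8 alternatives, and without the cells with an iNKT or MAIT note the difference was 2.44 points (-3.71 to 8.48). TRAJ42 was the 1 of 16 TRAJ segments (6.25%), at 3.12% (11 cells) against 0.410% (1 cell), in 6 of 8 alternatives. Its difference ran from 1.68 to 4.59 points over the alternatives. Among 10 TRAV calls (0%), TRAV12D-3 differed by -2.36 points (-6.14 to 0.887) and TRAV16N by 1.64 points (-1.53 to 4.53). Counted by TRBV family, in which the joint call joins TRBV13, the families with such an interval were TRBV19 with age under isotype (1 of 13, 7.69%), TRBV1 and TRBV31 with age under aCD49d Ab (2 of 16, 12.5%), TRBV19 and TRBV31 with treatment in young mice (2 of 15, 13.3%) and TRBV31 with treatment in aged mice (1 of 15, 6.67%). No TRAV family had one in any of the 4 comparisons (0% of 10 to 12 families). The 4 comparisons share libraries in pairs, so their calls are not independent of each other. Over the 4 comparisons the shares of segments with such an interval ran from 0% to 15.8%, on small numbers of segments.

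Whether the treatment difference itself differed with age was measured as the aged minus the young difference. For TRBV, 2 of 20 labels (10%) had an interval without 0. TRBV31, which lies downstream of the constant regions in reverse orientation (chr6:41557693-41558371, minus strand), joins by inversion and not by deletion. It was higher with aCD49d Ab in young mice and lower in aged mice, a change of -8.26 points (-13.0 to -3.24). Its 4 shares formed 2 groups that cross age and treatment: 2.20% (4 cells) and 2.18% (9 cells) in the young isotype and aged aCD49d libraries, and 6.82% (26 cells) and 5.81% (20 cells) in the other two. TRBV19 went the other way, with -6.03 points in young and 2.49 points in aged mice, a change of 8.51 points (2.14 to 15.5). Of 12 TRBJ segments 1 (8.33%), TRBJ1-1, changed by 6.92 points (0.189 to 14.2), and of 20 TRAJ segments 1 (5%), TRAJ34, by 5.85 points (0.577 to 11.9). No TRAV call of 11 (0%) did.

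The other measures taken were 16 of CDR3 length, charge, hydrophobicity, cysteine and unmatched bases, and the shares of the TRBJ2 cluster, of TRAJ31 to TRAJ61 and of the joint call with TRBV13-2. None of these 19 had an interval without 0 in any of the 4 comparisons (0% in each). Single residues did in a few cases. Between the isotype libraries, 2 of 40 residue shares (5%) differed: glycine made up 18.0% of beta loop residues in aged and 20.7% in young mice, and glutamine 4.57% and 6.43%. With aCD49d Ab, 1 of 40 (2.5%) differed with age, beta leucine at 3.06% in aged and 4.29% in young mice. Between treatments 4 of 40 (10%) differed in aged and 2 of 40 (5%) in young mice, among them beta threonine at 10.5% with aCD49d Ab and 8.49% with isotype in aged mice. Residues of 1 loop are not independent, so these intervals are too narrow.

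Unexpanded cells were compared with the clonotypes of 2 or more cells of the same library, each clonotype counted once. Unlike the unexpanded cells, these clonotypes were not filtered for the TRAV11-TRAJ18 chain. There were 18, 39, 87 and 82 of these, so intervals were widest in the young libraries. In the aged isotype library, 1 of 17 TRBV labels (5.88%) differed: TRBV13-1 was used by 7.27% of unexpanded cells and 1.16% of clonotypes (6.10 points, 0.379 to 9.57). The whole TRBV13 family, 1 of 13 families (7.69%), stood at 29.4% against 15.1% (14.2 points, 3.76 to 22.8). In the aged aCD49d library it was TRBV12-2 that differed, 1 of 17 labels (5.88%), at 2.91% of unexpanded cells and 11.1% of clonotypes (-8.20 points, -17.2 to -1.93), and the TRBV12 family, 1 of 13 (7.69%), at 7.04% against 19.8% (-12.7 points, -23.3 to -4.18). None of 6 labels in the young isotype and of 19 in the young aCD49d library differed (0% in each). CDR3 length was 14.04 residues over all 224 beta chains of clonotypes and 13.62 over their 213 alpha chains, and none of the 19 measures listed above had an interval without 0 in any library (0% in each). Of 40 residue shares, 2 (5%) had one in the aged isotype library, alpha threonine at 6.47% in unexpanded cells and 3.95% in clonotypes and alpha valine at 0.979% and 2.96%. In the aged aCD49d library 1 (2.5%) did, beta tryptophan at 1.35% and 2.57%, in the young aCD49d library 2 (5%), beta tyrosine at 3.03% and 5.75% and beta tryptophan at 1.45% and 3.19%, and in the young isotype library 0 (0%). Whether these differences hold between mice was not tested.

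CDR3 sequences present in more than 1 library were few among unexpanded cells. In all, 6 of 1295 distinct beta amino acid CDR3s and 23 of 1013 distinct alpha CDR3s were found in 2 or more libraries. No pair of alpha and beta CDR3 nucleotide sequences was found in 2 libraries. The shared beta CDR3s had a median of 6 unmatched bases in 12 chains against 10 in the 1307 chains found in 1 library, and a mean length of 12.67 against 13.96 residues. Of the 49 shared alpha chains, 30.6% (18.3 to 45.4) had no unmatched base, against 15.1% (13 to 17.5) of the 1006 others. Shared sequences were thus shorter and nearer to germline, in a description of few chains. Between the aged libraries 10 alpha CDR3s were shared, 4.15% of the 241 of the isotype and 2.92% of the 343 of the aCD49d library. Every other pair of libraries shared 2 to 6 alpha CDR3s. No beta CDR3 was shared between the aged libraries (0 of 337 and of 407), and the other pairs shared 0 to 3.

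Their nucleotides show how an amino acid loop was reached in different mice. The sequences below run 5' to 3' from the cysteine codon, as deposited, with the bases that match neither germline V nor J in capitals. A beta loop, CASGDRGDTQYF, was read with identical bases from both young libraries, in the joint call with TRBJ2-5:
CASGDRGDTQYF young isotype and young aCD49d: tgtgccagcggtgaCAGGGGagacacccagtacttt
The loop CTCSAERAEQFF, of TRBV1 with TRBJ2-1, was coded by different junction bases in each library:
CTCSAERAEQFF young aCD49d: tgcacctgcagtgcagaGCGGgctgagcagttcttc
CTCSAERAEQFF aged aCD49d: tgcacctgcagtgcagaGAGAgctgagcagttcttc
The alpha loop found in most cells, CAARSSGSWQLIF of TRAJ22, was seen in 4 cells of 3 libraries. It had no unmatched base 3 times and another codon at the join once, the latter on 1 UMI. The V call was TRAV10N in the aged isotype library and TRAV7D-2 in the others:
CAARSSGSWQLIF young aCD49d, aged isotype and aged aCD49d: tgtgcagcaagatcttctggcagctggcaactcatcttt
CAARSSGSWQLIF aged isotype: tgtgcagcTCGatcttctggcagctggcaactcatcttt
The loop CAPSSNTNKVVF of TRAJ34 was reached from 3 TRAV families, each time by 1 proline codon at the join:
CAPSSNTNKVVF young isotype (TRAV7D-3): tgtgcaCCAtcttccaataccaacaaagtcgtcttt
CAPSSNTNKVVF young aCD49d (TRAV13D-2): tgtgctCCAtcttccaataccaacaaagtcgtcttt
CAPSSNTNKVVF aged aCD49d (TRAV12D-2): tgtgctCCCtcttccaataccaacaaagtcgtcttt
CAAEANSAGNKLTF of TRAV4D-3 with TRAJ17 had no unmatched base in either the young or the aged isotype library:
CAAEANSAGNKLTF young isotype and aged isotype: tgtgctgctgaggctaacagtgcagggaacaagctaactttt

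The remaining named loops followed the same lines. The beta loops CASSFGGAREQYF and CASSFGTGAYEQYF (both TRBJ2-7), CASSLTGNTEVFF and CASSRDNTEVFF (both TRBJ1-1) were each seen in 2 libraries with a different TRBV in each. The alpha loop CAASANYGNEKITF (TRAJ48, 0 to 2 unmatched bases), a loop of 14 residues of TRAJ37 (4 unmatched bases) and a loop of 12 residues of TRAV4D-4 with TRAJ12 (1 unmatched base) were each seen in 2 libraries. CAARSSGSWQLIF was also carried by 3 cells of larger clonotypes, and none of the other named loops was.

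The alpha chain of MAIT cells, which see vitamin B metabolites on MR1, joins TRAV1 to TRAJ33. It was found in 3 of 1055 alpha chains (0.284%): 2 in the young aCD49d and 1 in the aged isotype library. In the young isotype and aged aCD49d libraries it was not detected, which allows a share of up to 1.91% and 0.852% by a limit of 3 counts, and of up to 2.32% and 1.04% by the exact interval. The loops in the young aCD49d library were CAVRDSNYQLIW with TRBV13-3 and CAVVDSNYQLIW with the joint beta call, both of 12 residues. The chain of the aged isotype library was paired with TRBV20 and had a loop of 15 residues, so that it met the count by its V and J calls alone. The deposited clonotype tables carry a gene-level note of possible iNKT or MAIT identity for 469 unexpanded cells (34.5%), and it names an alpha gene in 3 of them.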

How the data were processed

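The authors processed each TCR library with Cell Ranger 7.2.0 against mm10 and deposited, per library, a table of contigs with read counts and UMI counts and a table of clonotypes with their cell count (frequency) and their fraction of cells (proportion). The single-cell transcriptomes of the same series were not used here. The study's filter for T cells by transcriptome was not repeated.

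The members and lists were chosen with earlier results of these data known. For each cell and locus the productive chain with most UMIs was kept. For shares the 95% intervals are exact (Clopper-Pearson), for differences they follow Newcombe. No test was run, since each group is 1 library of 2 pooled mice. Germline ends came from the GRCm38.p6 genome with RefSeq and GENCODE annotation, and 0 segments lacked one. Central CDR3 residues exclude the first 3 and last 3. Differences between segments were read where at least 10 cells used the segment in either library. Named segments were the 6 TRBV, 6 TRAV, 4 TRBJ and 4 TRAJ with the highest mean share, the 2 TRBV and 2 TRAV with the largest difference in each comparison, the 5 V-J pairs per chain and 3 TRBV-TRAV pairs with most cells (ties by name), up to 6 CDR3s per chain in most libraries, and the MAIT alpha chain. Other segments named, TRBV30, TRBV23, the TRAJ examples and those with an interval that left out 0, were chosen after their values were seen. The scripts were tested on simulated data. Alternatives were 1 alpha and 1 beta chain only, at least 2 UMIs per chain, other trimming, iNKT or MAIT notes left out and smaller libraries. The scripts ran in Python 3.11.15 with pandas 2.3.3, numpy 2.4.6 and scipy 1.17.1, and matplotlib 3.10.9 drew the plots.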

Additional observations from a re-analysis of the deposited data

Results flagged for a closer look

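The difference of aCD49d minus isotype went opposite ways in young and aged mice for 4 segments of the unexpanded cells, and the interval of the change left out 0. These were 2 of 20 TRBV (10%), 1 of 12 TRBJ (8.33%) and 1 of 20 TRAJ segments (5%), and none of 11 TRAV (0%). The aged minus young change was 8.51 points for TRBV19, -8.26 points for TRBV31, 6.92 points for TRBJ1-1 and 5.85 points for TRAJ34. TRBV19 fell by 6.03 points with aCD49d Ab in the young and was 2.49 points higher in the aged library. TRBV31 was 4.63 points higher in the young and 3.63 points lower in the aged library. TRBJ1-1 was at -1.42 points in the young and 5.50 points in the aged, and TRAJ34 at -4.05 points in the young and 1.80 points in the aged. Within 1 age the interval left out 0 in both ages for TRBV31, in young mice alone for TRBV19, in aged mice alone for TRBJ1-1 and in neither for TRAJ34. The aged difference of TRBJ1-1 left out 0 in 4 of 8 alternatives. The intervals cover counting error within 4 libraries, and the variation between mice was not tested.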

How the results depend on the processing

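Of 212 repeats of the main values under other settings, 195 were counted as unchanged, and among 436 repeats of single segments and pairs 374 were. For shares, unchanged meant a value within the main interval. For differences it meant that the interval left out or included 0 as before, whatever the shift. Counts, ratios, mean lengths and median unmatched bases were held to a fixed tolerance, which is not an error. Of the 14 segment differences between libraries whose interval left out 0, 1 kept that under all 8 alternatives, TRBV31 in aged against young aCD49d (-6.20 to -4.64 points). Counting the joint call as TRBV13-2 can move no other segment, and neither joint-call setting can move a TRAJ. These repeats therefore kept their call by construction. Counted anew over all segments, and not only among the 14, differences whose interval left out 0 numbered 9 with exactly 1 alpha and 1 beta chain. They numbered 5 without the cells with an iNKT or MAIT note and 4 when the smallest library's 262 cells were expected of each. Leaving out cells with that note removes every chain called TRBV1, TRBV13-1, TRBV13-2, TRBV13-3, TRBV19 or TRBV29, so that their differences are lost by construction. TRBV13-2 turned to -2.04 points (aged minus young, isotype) and -1.97 points (aCD49d minus isotype, young) with the joint call counted as TRBV13-2, a setting chosen after seeing the data, as was the next. With alpha chains whose V framework 3 occurs at 1 place, the near minus far difference was 39.1 points in the young isotype and 26.7 points in the aged isotype library, with intervals that included 0. Leaving out the first 4 and last 4 residues removes residue 4 at the V end as well as charged J codons. It gave beta loops below 0 in 37.9%, 45.4%, 45.9% and 45.9% and alpha loops above 0 in 9.55%, 9.93%, 8.61% and 10.2% of chains. With the V call required, 2, 5, 10 and 13 cells of the young isotype, young aCD49d, aged isotype and aged aCD49d libraries shared a CDR3. With TRAV11-TRAJ18 cells kept, unexpanded cells made up 80.9%, 73.7%, 36.4% and 40.7% of the cells in the same order. Mean lengths and the median unmatched bases of beta chains stayed within their fixed tolerance in every setting. The shares of alpha chains with no unmatched base stayed within their intervals. No paired analysis was possible because no group had a second library. Alpha chains rested on 1 UMI most often in the aged isotype library (20.2%). The young isotype library had the fewest cells with an alpha chain (157), and these limits were not ranked.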
